A study of Homo sapiens with 24 samples.

Results

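MiR-653-5p, miR-653-3p and miR-489-3p are processed from 2 hairpins, MIR653 and MIR489, that lie in the same intron of CALCR, the calcitonin receptor gene. They were chosen by position, as the rows on the minus strand of chromosome 7 that start in a window around the hairpins, and were singled out because the libraries with SFPQ loss and with NONO loss had shown them on opposite sides of the control. The set holds 3 of the 2652 mature miRNAs counted in the series, listed in the tables as MIMAT0003328 (miR-653-5p), MIMAT0026625 (miR-653-3p) and MIMAT0002805 (miR-489-3p). One more row lies in the same window. It is the 5′ arm of MIR489, which had 7 counts over all 24 libraries and at most 2 in any of them, so it was too low to test and is given here only by that count.

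SBC-3, from which the small RNA was taken, is a line of human small cell lung cancer whose genotype is labelled WT, and every group had 3 libraries. All cells were reverse transfected with 10 nM of a reagent and harvested after 72 h. SFPQ was knocked down with the small interfering RNAs (siRNAs) siSFPQ-3 and siSFPQ-2, and NONO with siNONO-4 and siNONO-3, both set against the control siRNA siCtrl. NEAT1 was knocked down with the antisense oligonucleotides (ASOs) ASO-NEAT1-1047 and ASO-NEAT1-1473, set against ASO-Ctrl. SFPQ and NONO are related nuclear RNA-binding proteins, and NEAT1 is the long noncoding RNA on which nuclear paraspeckles form. The series asked how these components bear on miRNA production. The levels of the targeted RNAs were not analysed here. The labels do not say whether replicates came from separate cultures, so p-values measure only the spread between these libraries, which may be technical.

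A miRNA within an intron is transcribed as part of its host's primary transcript. The Microprocessor, with the nuclease DROSHA, cuts the hairpin out in the nucleus, and DICER then cuts off the loop, which leaves a 5p and a 3p strand, either of which can be loaded into an Argonaute protein. A loaded strand finds its targets mainly through its seed, bases 2 to 8. CALCR encodes a receptor for the peptide hormone calcitonin and, in mouse muscle, marks quiescent satellite cells. In mouse, miR-489 is known for keeping those cells quiescent.

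The mature sequences come from RefSeq (GRCh38.p14), where all 3 matched by position, and are shown because the seeds tell the members apart. Each is written 5′ to 3′ with the seed in capitals.

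miR-653-5p: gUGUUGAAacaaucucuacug

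miR-653-3p: uUCACUGGaguuuguuucaaua

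miR-489-3p: gUGACAUCacauauacggcagc

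None of the 3 seeds was shared with another member or with any other of the 2370 mature miRNA names in the RefSeq table. The miRNAs thus carry 3 different targeting sequences, although they leave the same intron. Their GC content was 38.1% for miR-653-5p, 31.8% for miR-653-3p and 50% for miR-489-3p, all below the median of 52.2% over the RefSeq mature miRNAs.

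The hairpins, from the same source and also 5′ to 3′, show which arms were counted. Capitals mark the counted mature products.

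MIR653: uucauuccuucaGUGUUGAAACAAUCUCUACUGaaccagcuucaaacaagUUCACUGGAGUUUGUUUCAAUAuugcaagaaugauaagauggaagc

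MIR489: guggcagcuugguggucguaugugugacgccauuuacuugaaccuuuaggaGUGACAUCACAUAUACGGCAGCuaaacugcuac

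MIR653 gave both of its arms, separated by 17 bases of loop. MIR489 gave almost entirely its 3p arm. On hg38, MIR653 covers 93482760 to 93482855 of chromosome 7 and MIR489 covers 93483936 to 93484019, both on the minus strand. The mature products cover 93482823 to 93482843 for miR-653-5p, 93482784 to 93482805 for miR-653-3p and 93483947 to 93483968 for miR-489-3p. Transcription of CALCR reaches MIR489 first and MIR653 after a gap of 1080 bases.

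In GENCODE v29, CALCR spans 150.2 kb and has 8 transcripts, all of which contain the intron of 7423 bases that holds both hairpins. It is intron 4 of CALCR-201 and intron 1 of CALCR-202, CALCR-204 and CALCR-206. MIR489 lies 90.7 kb and MIR653 91.9 kb downstream of the gene's first start. CALCR-202, CALCR-204 and CALCR-206 start only about 3 kb upstream of MIR489, at a distance of 2.99 kb for CALCR-202 and 2.96 kb for the other two. Which of these transcripts SBC-3 cells use was not analysed here.

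**Figure D1:**
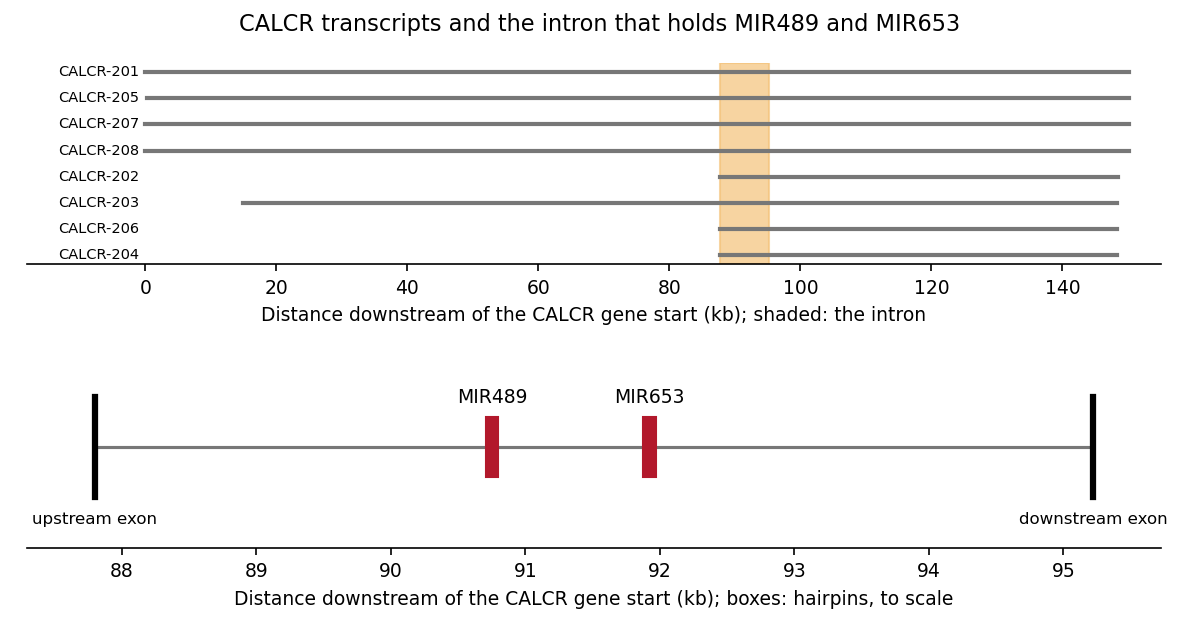
The 8 annotated CALCR transcripts (upper panel, grey lines, x axis in kb downstream of the gene start) with the shaded intron that holds MIR489 and MIR653, and that intron enlarged (lower panel, red boxes to scale). All 8 transcripts cross the intron, MIR489 lies upstream of MIR653, and 3 transcripts start only about 3 kb before MIR489.

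The libraries held between 2038382 and 4279644 miRNA counts, and the test used the 626 miRNAs that passed a filter on low counts. All 3 members passed, each from a single locus, and no other miRNA had counts within 10% of theirs in every library. Of the 8 neuroendocrine small cell lung cancer markers, miR-9-5p ranged from 46767 to 106856 counts per 1000000 (CPM) and miR-7-5p from 6849 to 19907 CPM, while miR-375-3p stayed between 0.257 and 8.55 CPM and miR-124-3p between 0 and 1.41 CPM. Replicate 1 of siCtrl and replicate 3 of ASO-NEAT1-1047 stood apart from the other replicates of their groups: 89 of 626 miRNAs (14.2%) in the siCtrl library, and 25 (3.99%) in the ASO-NEAT1-1047 library, were under 50% of both other replicates. MiR-653-3p was among them in both, at 44.3% of the mean of the other replicates in siCtrl replicate 1 and 47.8% in ASO-NEAT1-1047 replicate 3, whereas miR-653-5p was at 157.1% and 110.2%. In the other direction, both other replicates were under 50% of siCtrl replicate 1 for 76 miRNAs. They were under 50% of ASO-NEAT1-1047 replicate 3 for 55 miRNAs.

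The 3 miRNAs were of middling abundance. Over the 24 libraries miR-653-5p averaged 91.9 CPM, miR-653-3p 84.6 CPM and miR-489-3p 43.8 CPM, which ranked them 221, 227 and 277 among the 626, whose median was 25.7 CPM. Each value rested on 45 to 675 counts. The lowest of these, 45 counts of miR-489-3p in siSFPQ-3 replicate 3, had an exact 95% Poisson interval of 32.8 to 60.2 counts, and such intervals cover counting error only.

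MiR-653-5p, the 5p strand of MIR653, was lowest in the siSFPQ libraries and highest in the siNONO libraries. It had 36.0, 24.99 and 16.5 CPM with siSFPQ-3 and 37.7, 29.4 and 25.6 CPM with siSFPQ-2. It had 142.8, 166.1 and 153.4 CPM with siNONO-4 and 139.5, 153.8 and 135.8 CPM with siNONO-3. The siCtrl libraries had 125.2, 88.3 and 71.0 CPM. All 6 siSFPQ libraries thus lay below, and all 6 siNONO libraries above, every siCtrl library, and in CPM the siCtrl libraries were the most spread. The level averaged 28.4 ± 7.81 CPM with SFPQ knockdown (SD, n = 6), 148.6 ± 11.3 CPM with NONO knockdown (n = 6) and 94.8 ± 27.7 CPM with siCtrl (n = 3).

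MiR-653-3p, the other strand of the same hairpin, followed the same order with more scatter. It had 26.5, 26.7 and 13.96 CPM with siSFPQ-3 and 44.7, 35.03 and 19.0 CPM with siSFPQ-2. It had 164.1, 139.5 and 119.1 CPM with siNONO-4 and 137.1, 153.8 and 126.4 CPM with siNONO-3. The siCtrl libraries had 49.8, 123.2 and 101.8 CPM. All 6 siSFPQ libraries again lay below every siCtrl library, but only 5 of 6 siNONO libraries lay above all of them, since siNONO-4 replicate 3 at 119.1 CPM lay under siCtrl replicate 2. The low value of 49.8 CPM belongs to the siCtrl library that stood apart.

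MiR-489-3p, the product of the upstream hairpin, was the least abundant and the most reproducible of the 3, with a standard deviation of log2 CPM within groups of 0.20, against 0.27 for miR-653-5p and 0.47 for miR-653-3p. It had 17.6, 18.9 and 11.6 CPM with siSFPQ-3 and 28.4, 34.1 and 22.3 CPM with siSFPQ-2. It had 63.0, 76.8 and 79.2 CPM with siNONO-4 and 70.3, 65.3 and 69.1 CPM with siNONO-3. The siCtrl libraries had 48.7, 40.2 and 40.7 CPM. Its groups did not overlap either: every siSFPQ library was below, and every siNONO library above, every siCtrl library. For all 3 miRNAs, replicate 3 was the lowest library within both siSFPQ groups.

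These contrasts were part of the choice of the 3 miRNAs, so they are given as a description without a test. With SFPQ knockdown, the log2 fold change against siCtrl was -1.75 ± 0.20 for miR-653-5p and -1.75 ± 0.29 for miR-653-3p (standard error), which is 29.8% of the control level for both strands. It was -1.02 ± 0.18 for miR-489-3p, or 49.4% of the control level. Both strands of the downstream hairpin were therefore at a lower fraction of control than miR-489-3p of the upstream one, although the 95% intervals overlapped. That of miR-489-3p was -1.38 to -0.65. The overlap was narrow for miR-653-5p, at -2.15 to -1.34, and wider for miR-653-3p, at -2.34 to -1.16. All 3 had non-overlapping groups, as had 89 of the 626 tested miRNAs (14.2%) in that direction.

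With NONO knockdown, the log2 fold change against siCtrl was 0.64 ± 0.21 for miR-653-5p, 0.61 ± 0.30 for miR-653-3p and 0.71 ± 0.18 for miR-489-3p. The fold was thus 1.56 for miR-653-5p and 1.63 for miR-489-3p, and 1.53 for miR-653-3p with an interval of 0.998 to 2.34. Of the 626 miRNAs, 25 (3.99%) had all siNONO libraries above all siCtrl libraries, among them miR-653-5p and miR-489-3p. The control library that stood apart weighed on the MIR653 strands in opposite ways: without siCtrl replicate 1, the NONO difference was 0.84 for miR-653-5p and 0.25 for miR-653-3p, while miR-489-3p had 0.74. Without siCtrl replicate 3, miR-653-5p had 0.42, and without siCtrl replicate 2, miR-653-3p had 0.85.

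Both knockdowns share the siCtrl libraries. Set directly against each other, SFPQ knockdown minus NONO knockdown, the difference was -2.39 ± 0.17 for miR-653-5p, -2.36 ± 0.25 for miR-653-3p and -1.72 ± 0.15 for miR-489-3p on the log2 scale. Of the 626 miRNAs, 5 (0.799%) had every siSFPQ library below and every siNONO library above every siCtrl library. MiR-653-5p and miR-489-3p were among these 5. The others are given here only by that count. Opposite directions were also seen in the closest profiles named below. MiR-675-5p, which is processed from the noncoding RNA H19, had log2 differences of -1.38 with SFPQ and 0.74 with NONO knockdown. The 5′ arm of MIR483, a hairpin within IGF2, had -0.87 and 0.74.

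**Figure D2:**
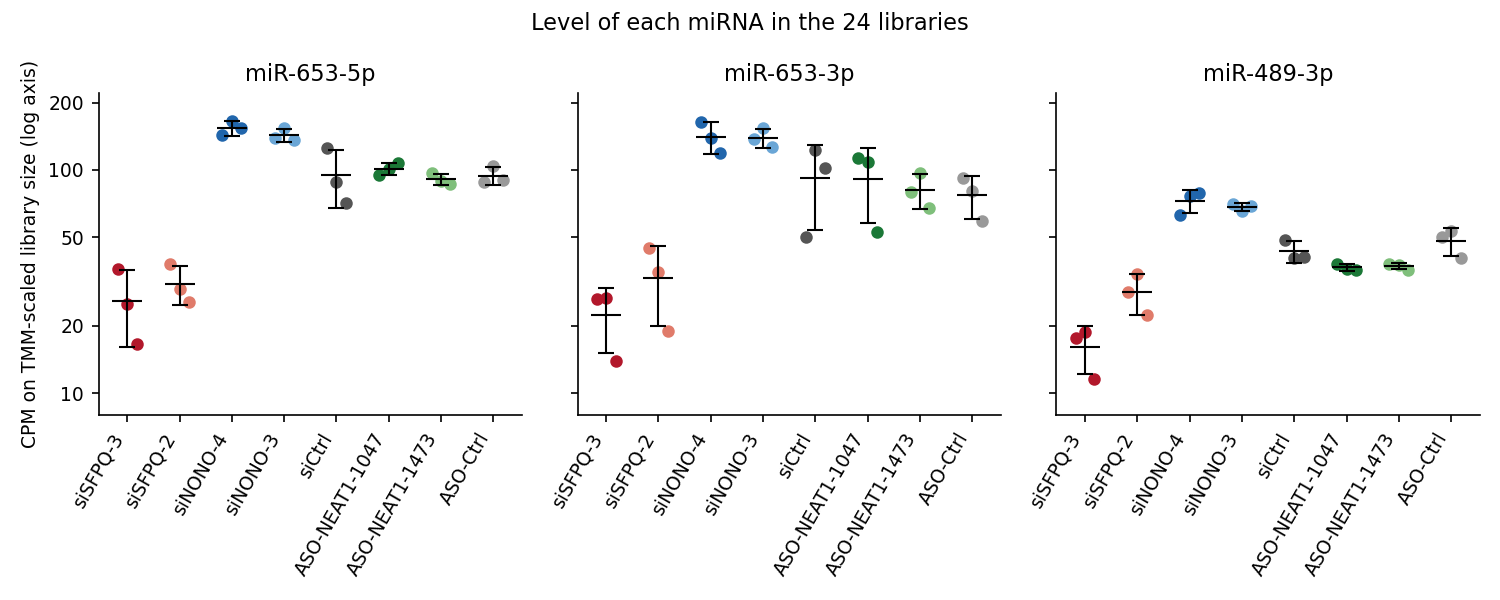
CPM (log axis) of miR-653-5p, miR-653-3p and miR-489-3p in the 3 libraries of each of the 8 groups (points, replicates 1 to 3 from left to right), with the group mean and SD (black). By group mean, the siSFPQ groups sit lowest, with libraries from 11.6 to 44.7 CPM over the 3 miRNAs. The siNONO groups sit highest, with libraries from 63.0 to 166.1 CPM, and the controls and NEAT1 groups lie between. For miR-653-3p, siNONO-4 replicate 3 lies under siCtrl replicate 2.

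By group mean, each miRNA was highest in the siNONO groups and lowest in the siSFPQ groups, with the controls and NEAT1 groups between. For miR-653-5p the order of group means was siNONO-4 at 154.1, siNONO-3 at 143.0, ASO-NEAT1-1047 at 101.3, siCtrl at 94.8, ASO-Ctrl at 94.4, ASO-NEAT1-1473 at 91.0, siSFPQ-2 at 30.9 and siSFPQ-3 at 25.8 CPM. Library ranges of neighbours in that order overlapped except at the step below siNONO-3 and the step above siSFPQ-2. Of the 626 miRNAs, 42 (6.71%) had all siNONO-3 libraries above all ASO-NEAT1-1047 libraries, and 130 (20.8%) all siSFPQ-2 libraries below all ASO-NEAT1-1473 libraries. MiR-653-3p had gaps at the same 2 places, with siNONO-3 at 139.1 CPM over siCtrl at 91.6 CPM, and siSFPQ-2 at 32.9 CPM under ASO-Ctrl at 77.4 CPM. These groups did not overlap in 54 (8.63%) and 144 (23.0%) of the 626 miRNAs in the same directions. The steps compare only neighbours in the order: for miR-653-3p, siNONO-4 replicate 3 at 119.1 CPM lay under siCtrl replicate 2 at 123.2 CPM. MiR-489-3p had further gaps: ASO-NEAT1-1473, at 37.1 CPM, did not overlap siCtrl, the next above it at 43.2 CPM, and siSFPQ-3, at 16.0 CPM, did not overlap siSFPQ-2 at 28.3 CPM. The same held for 25 (3.99%) and 57 (9.11%) of the 626. Its other gaps were siNONO-3 above ASO-Ctrl, as in 54 miRNAs (8.63%), and siSFPQ-2 below ASO-NEAT1-1047, as in 123 (19.6%). Between the controls, the log2 difference, ASO-Ctrl minus siCtrl, was -0.01 ± 0.23 for miR-653-5p, -0.24 ± 0.34 for miR-653-3p and 0.15 ± 0.20 for miR-489-3p. For miR-653-3p it was -0.60 without siCtrl replicate 1, the library that stood apart, -0.51 without ASO-Ctrl replicate 1 and 0.02 without siCtrl replicate 2.

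NEAT1 knockdown took no part in the choice of these miRNAs and could be tested. MiR-653-5p had 94.7, 101.2 and 107.9 CPM with ASO-NEAT1-1047 and 96.5, 89.7 and 86.7 CPM with ASO-NEAT1-1473, against 88.3, 104.2 and 90.6 CPM with ASO-Ctrl. MiR-653-3p had 113.5, 108.0 and 52.9 CPM with ASO-NEAT1-1047 and 79.5, 96.8 and 67.5 CPM with ASO-NEAT1-1473, against 92.4, 80.7 and 59.1 CPM with ASO-Ctrl. The groups overlapped for both strands, and the low value of miR-653-3p in ASO-NEAT1-1047 belongs to the library that stood apart. No miRNA passed edgeR's quasi-likelihood test for NEAT1 knockdown (0 of 626, or 0.0%, at an adjusted p of 0.05; 19 at an unadjusted p under 0.05, and 0 adjusted and 21 unadjusted with DESeq2). The log2 fold change was 0.02 ± 0.20 for miR-653-5p (95% interval -0.39 to 0.44; edgeR adjusted p = 0.975) and 0.16 ± 0.29 for miR-653-3p (-0.45 to 0.76; edgeR adjusted p = 0.911).

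MiR-489-3p was lower in every NEAT1 knockdown library than in every ASO-Ctrl library, by a small amount that did not pass the test over all miRNAs. It had 38.0, 36.1 and 35.7 CPM with ASO-NEAT1-1047 and 38.0, 37.5 and 35.7 CPM with ASO-NEAT1-1473, against 50.1, 53.5 and 40.3 CPM with ASO-Ctrl. The 6 NEAT1 knockdown libraries were all between 35.7 and 38.0 CPM, and the lowest ASO-Ctrl library, replicate 3, lay just above them. The log2 fold change was -0.38 ± 0.17, or 76.8% of the ASO-Ctrl level, with an edgeR p of 0.039 and an adjusted p of 0.908. That fit treated the libraries as independent, although those of both NEAT1 ASOs deviated together by replicate number. A replicate block gave -0.37 (edgeR adjusted p = 0.76). All 6 NEAT1 knockdown libraries lay below all 3 ASO-Ctrl libraries in 3 of the 626 miRNAs (0.479%). The others, looked up after their values were seen, were miR-16-1-3p at -0.45 and miR-532-3p at -0.97.

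Each ASO was also set against the same 3 ASO-Ctrl libraries, so their values are not independent of each other. For miR-489-3p, ASO-NEAT1-1047 differed from ASO-Ctrl by -0.39 ± 0.20 (edgeR adjusted p = 1.0) and ASO-NEAT1-1473 by -0.37 ± 0.20 (edgeR adjusted p = 0.605). For miR-653-5p the differences were 0.10 and -0.05, and for miR-653-3p 0.24 and 0.07, with edgeR adjusted p-values from 0.929 to 1.0. Without ASO-NEAT1-1047 replicate 3, the library that stood apart, the ASO-NEAT1-1047 value for miR-653-3p was 0.56, and leaving out any 1 library gave 0.01 to 0.56. No miRNA passed edgeR's test between the ASOs (0 of 626, or 0.0%; 15 at an unadjusted p under 0.05, and 0 and 17 with DESeq2). ASO-NEAT1-1047 minus ASO-NEAT1-1473 came to 0.16 for miR-653-5p, 0.17 for miR-653-3p and -0.02 for miR-489-3p.

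The siRNAs to one target could also be set against each other, since the rule did not use that difference. MiR-489-3p was lower with siSFPQ-3 than with siSFPQ-2 in every library, as were 57 of the 626 miRNAs (9.11%), at 16.0 ± 3.87 against 28.3 ± 5.88 CPM (SD, n = 3 each). The log2 difference, siSFPQ-3 minus siSFPQ-2, was -0.81 ± 0.21 (95% interval -1.25 to -0.38), which did not pass. Its p from edgeR's quasi-likelihood test was 0.00081, and 0.0845 after Benjamini-Hochberg adjustment. In that comparison 4 of the 626 miRNAs (0.639%) passed. Over the same pair, miR-653-3p differed by -0.56 ± 0.35 (edgeR adjusted p = 0.762) and miR-653-5p by -0.26 ± 0.24 (adjusted p = 0.893). When spike-in totals set the library sizes, the difference was -0.24 for miR-489-3p (edgeR adjusted p = 0.519), -0.04 for miR-653-3p and 0.27 for miR-653-5p, with the median of all miRNAs at 0.46, against -0.09 with TMM. Leaving out 1 library gave -0.87 to -0.57 for miR-489-3p and -0.76 to -0.18 for miR-653-3p, the value nearest 0 being that without siSFPQ-2 replicate 1. Between the siNONO reagents, siNONO-4 minus siNONO-3 was 0.11 for miR-653-5p (95% interval -0.37 to 0.58), 0.02 for miR-653-3p (-0.67 to 0.71) and 0.09 for miR-489-3p (-0.32 to 0.51), each with an edgeR adjusted p of 1.0. No miRNA passed between them with edgeR (0 of 626, or 0.0%; 38 at an unadjusted p under 0.05), and 7 did with DESeq2.

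**Figure D3:**
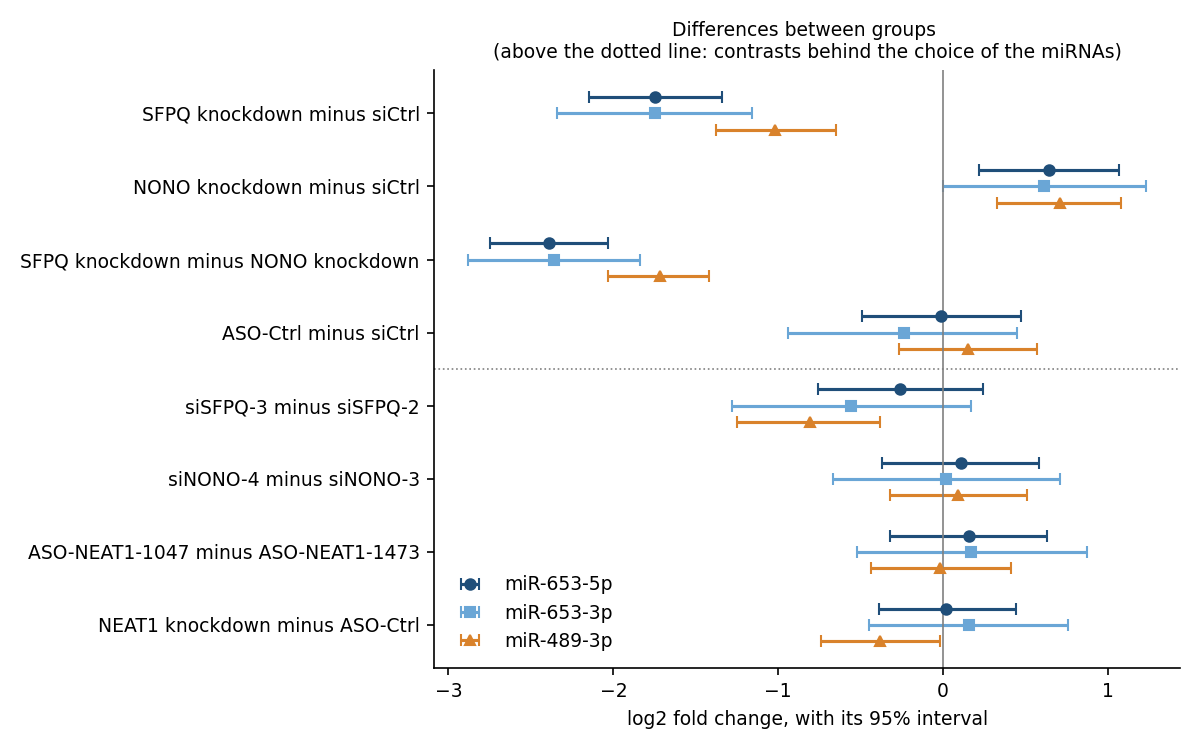
The log2 fold change of each miRNA (x axis; points, with 95% intervals from the edgeR fit as lines) in 8 contrasts. The contrasts above the dotted line lay behind the choice of the miRNAs and carry no test; SFPQ knockdown lies left of 0, from -1.75 to -1.02, and NONO knockdown right of it, from 0.61 to 0.71, and none of the tested contrasts below the line passed at an adjusted p of 0.05.

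The share of the 3p strand of MIR653 varied more between siCtrl libraries than between group means. The 3p strand made up 48.5 ± 5.61% of the miR-653 counts with SFPQ knockdown and 48.4 ± 3.44% with NONO knockdown (SD, n = 6 each), against 48.5 ± 17.4% with siCtrl (n = 3). Its share was 46.7 ± 7.92% with NEAT1 knockdown (n = 6) and 44.8 ± 5.91% with ASO-Ctrl (n = 3), a difference of 1.9 percentage points (2-sided exact permutation p = 0.643). That test treated the libraries as independent, although those of both NEAT1 ASOs deviated together by replicate number. In siCtrl replicate 1 the 3p share was 28.5% (95% Wilson interval 24.6 to 32.7%) against 58.2% and 58.9% in replicates 2 and 3, and those 2 libraries lay above all 6 siSFPQ libraries (42.4 to 54.4%) and all 6 siNONO libraries (43.7 to 53.5%). In ASO-NEAT1-1047, replicate 3 had a share of 32.9% against 54.5% and 51.6% in the others. Outside these 2 libraries the share ranged from 39.5 to 58.9%, while the summed level of both strands differed several-fold between knockdowns.

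The balance between products of the 2 hairpins differed between group means. The ratio of miR-489-3p to miR-653-5p counts, which does not depend on how libraries are scaled, was 0.491, 0.754 and 0.703 with siSFPQ-3 and 0.752, 1.16 and 0.871 with siSFPQ-2, against 0.389, 0.455 and 0.574 with siCtrl. In 5 of the 6 siSFPQ libraries it lay above all 3 siCtrl libraries, the exception being siSFPQ-3 replicate 1. The ratio averaged 0.789 ± 0.221 with SFPQ knockdown and 0.476 ± 0.0388 with NONO knockdown, against 0.473 ± 0.0935 with siCtrl. It was 0.385 ± 0.0345 with NEAT1 knockdown, from 0.331 to 0.418, against 0.509 ± 0.061 with ASO-Ctrl, from 0.445 to 0.567. The ratio was not tested, and how often other pairs of miRNAs separate in these ways was not analysed. It also depends on the strand of MIR653 used, through both libraries that stood apart. In siCtrl replicate 1, miR-489-3p had 130 counts and miR-653-3p 133, against 94 and 148 in siSFPQ-2 replicate 1. In ASO-NEAT1-1047 replicate 3 these counts were 122 and 181, against 195 and 360 in ASO-Ctrl replicate 1. With miR-653-3p as the denominator, these pairs of libraries thus lie in the other order. MiR-489-3p, the numerator, did not pass with NEAT1 knockdown (edgeR adjusted p = 0.908). Counts of different miRNAs depend on how well each is ligated and amplified, so the ratio serves only to compare libraries and is not a ratio of molecules.

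**Figure D4:**
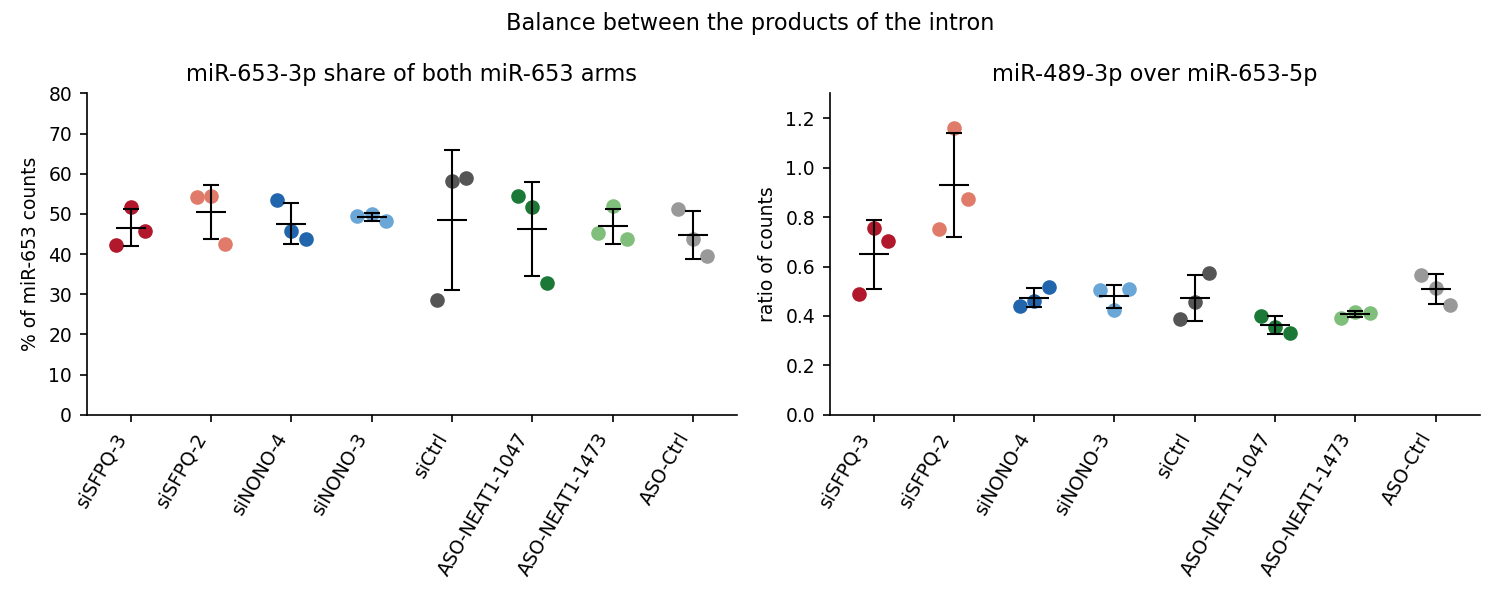
Left, the 3p strand as a percentage of the miR-653 counts; right, the ratio of miR-489-3p to miR-653-5p counts, for each library (points) with group mean and SD (black). The strand share runs from 39.5 to 58.9% apart from siCtrl replicate 1, at 28.5%, and ASO-NEAT1-1047 replicate 3, at 32.9%, while the ratio is highest with siSFPQ-2, at a mean of 0.928, and lowest with ASO-NEAT1-1047, at a mean of 0.363.

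Across the 8 groups, the profile of miR-653-5p was closest to that of miR-653-3p. Likeness was the root mean square difference of the 8 group means of log2 CPM, each centred on its own mean, over 395 miRNAs with at least 10 CPM on average; the strands of MIR653 differed by 0.097. With miR-653-3p left out, miR-489-3p came 12th in the order around miR-653-5p, at 0.385. Other miRNAs lay nearer. Those nearest to miR-653-5p were miR-497-5p at 0.213, the 5′ arm of MIR301B at 0.268, miR-675-5p at 0.274, miR-497-3p at 0.294 and the 3′ arm of MIR598 at 0.298. Around miR-653-3p, with miR-653-5p left out, miR-489-3p came 8th at 0.343. The nearest others there were miR-497-5p at 0.243, miR-675-5p at 0.281 and the 5′ arm of MIR301B at 0.296. Next came the 5′ arm of MIR483 at 0.306 and miR-497-3p at 0.328.

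The nearest to miR-489-3p were the 3′ arm of MIR7151 at 0.142, miR-195-3p at 0.174, the 5′ and 3′ arms of MIR483 at 0.180 and 0.252, and miR-142-3p at 0.263. All of these lie on other chromosomes. These distances describe 8 group means that share libraries and scaling, so they carry no test. With NONO knockdown, most of these neighbours were higher, as the members were at 0.61 to 0.71. The log2 difference was 0.54 for miR-497-5p, 0.45 for miR-497-3p, 0.74 for miR-675-5p and 0.47 for miR-195-3p. It was 0.74 and 1.02 for the 5′ and 3′ arms of MIR483 and 0.67 for miR-142-3p. The lowest were the 3′ arm of MIR7151 at 0.26, the 3′ arm of MIR598 at 0.17 and the 5′ arm of MIR301B at -0.07.

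**Figure D5:**
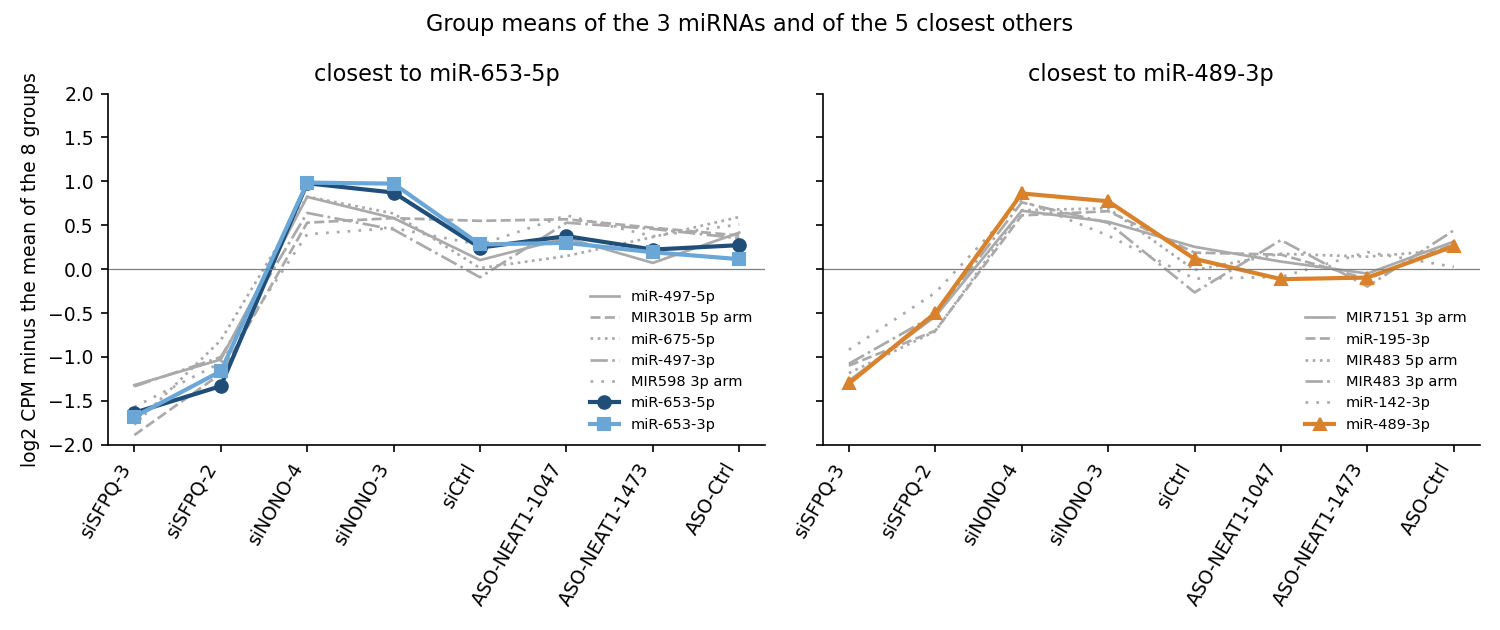
Group means of log2 CPM, centred on the mean of the 8 groups (y axis), for miR-653-5p and miR-653-3p (left) and miR-489-3p (right) in colour, with the 5 closest other miRNAs in grey. The MIR653 strands nearly coincide, with a root mean square difference of 0.097, and miR-489-3p lies lower with siSFPQ-3 than with siSFPQ-2.

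No other miRNA nearby had a level that could be set beside these. Within 5 Mb on chromosome 7, the closest counted miRNAs were miR-4652-5p and miR-4652-3p, 233 kb away on the plus strand, with at most 5 and 2 counts in a library. MiR-1285-3p and the 5′ arm of MIR1285-1, 1278.7 kb away, had at most 23 and 34 counts. MiR-591, miR-5692c and the 5′ arm of MIR5692A1 had at most 1 count.

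Of the 626 tested miRNAs, 314 lay, like the members, in the sense strand of an intron of a protein-coding gene, and 163 of these in a host of at least 100 kb. With SFPQ knockdown, 51 of the 163 were higher and 37 lower by edgeR's adjusted p (31.3% and 22.7%), beside 160 and 142 of all 626 (25.6% and 22.7%), and the median log2 fold change was 0.04 beside 0.02. With NONO knockdown, 1 was higher and 1 lower (0.613% each), beside 6 and 4 of all 626 (0.958% and 0.639%). Among the 92 of the list with at least 10 CPM, miR-653-3p had the 3rd lowest, miR-653-5p the 5th lowest and miR-489-3p the 15th lowest log2 fold change with SFPQ knockdown. The lowest were miR-12135 in NEO1 at -3.02 ± 0.19 (edgeR adjusted p = 5.96e-11) and miR-944 in TP63 at -2.08 ± 0.30 (edgeR adjusted p = 5.9e-06). The highest were the 5′ arm of MIR1296 in JMJD1C at 3.18 ± 0.31, miR-624-5p in STRN3 at 2.99 ± 0.31 and miR-561-3p in GULP1 at 2.35 ± 0.26. Intronic miRNAs of long genes thus lay on both sides with SFPQ knockdown. In hosts of at least 200 kb, which CALCR is not, more were higher: 32 of 76 (42.1%) were higher and 18 (23.7%) lower. With NONO knockdown, miR-12135 had -0.04 and miR-944 -0.51, neither passing, against 0.61 to 0.71 for the members.

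Markers of other cell types were set beside the members in the same libraries. The summed level of 6 muscle markers ran from 143 to 222 CPM with SFPQ knockdown and from 269 to 564 CPM with NONO knockdown, against 360.5 to 442 CPM with siCtrl, with miR-208b-3p and miR-499a-5p at or near 0. That of 5 blood cell markers ran from 24.8 to 59.3 CPM with SFPQ knockdown and from 64.9 to 153 CPM with NONO knockdown, against 45.1 to 91.7 CPM with siCtrl, nearly all of it miR-142-3p, while miR-223-3p and miR-451a stayed below 1 CPM. The sums of 6 epithelial markers were 502 to 688 CPM with SFPQ knockdown and 166 to 314 CPM with NONO knockdown, against 122 to 177 CPM with siCtrl. The sums of 8 neuroendocrine markers were 68078 to 90641 CPM with SFPQ knockdown and 102913 to 127478 CPM with NONO knockdown, against 111774 to 124821 CPM with siCtrl. Those of 5 fibroblast and vessel markers were 23974 to 35712 CPM with SFPQ knockdown and 31101 to 37280 CPM with NONO knockdown, against 33090 to 50227 CPM with siCtrl. Nearly all of these sums was miR-199a-3p, at 23330 to 49210 CPM over the libraries. MiR-145-5p reached at most 10.5 CPM and miR-214-3p 1.56 CPM. The part of these shifts in the members' differences was not tested, and in bulk libraries fewer cells with a miRNA and less of it per cell cannot be told apart.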

How the data were processed

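The values are raw counts for each miRNA locus and spike-in, which the authors deposited after counting with featureCounts, per the file headers. DESeq2 1.38.1, Subread 2.0.3, UMI-tools 1.1.1, Bowtie 1.3.0, Trimmomatic 0.39 and the build hg38 are named in the submitters' processing notes, with neither order nor settings. Per the labels' protocols, libraries were made with the QIAseq miRNA kit from 100 ng of total RNA with spike-ins. Collapsing of reads by molecular identifier is not stated in these sources. Of 2883 loci, 1 was kept per mature miRNA, the one with the largest total. Names were assigned by position within 3 bases from RefSeq (2357 miRNAs) or GENCODE v29 hairpins (281), and 14 had none. An arm is named by its hairpin where RefSeq gave no mature name. GENCODE v29 also gave the introns and hosts.

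Groups came from the sample titles. No replicates agreed within sampling noise (chi-square per degree of freedom of at least 37.8). Tests were run in edgeR 4.0.16, with limma 3.58.1 under R 4.3.3: 626 miRNAs with 99.97% of counts passed filterByExpr (minimum count 10), TMM set the library sizes, and 1 quasi-likelihood model used all 24 libraries with a term for each group. It left 16 degrees of freedom, and the common coefficient of biological variation was 0.25. P-values were adjusted by Benjamini-Hochberg over the 626, with a threshold of 0.05. A knockdown is the mean of both reagents minus its control, and a standard error is the fold change over the square root of F. CPM use the TMM-scaled library size, and log2 CPM a prior count of 2. Exact permutation tests used scipy 1.17.1.

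The members, lists and tests were chosen with earlier results of these data known. Named beside the members were the 5 closest profiles at 10 CPM or more, counted miRNAs within 5 Mb, miRNAs with a shared seed, and the 3 lowest and 3 highest intronic miRNAs in hosts of at least 100 kb. Alternatives were other scalings and filters, a replicate block, only the groups compared, DESeq2 1.42.0, other host lengths and leaving out libraries. Libraries with the same replicate number deviated together between ASO-NEAT1-1047 and ASO-NEAT1-1473, at correlations of 0.376 to 0.543 over miRNAs. There the numbers appear to pair libraries, from the data and not from the labels. The main model did not use this pairing and treated all libraries as independent. Only the replicate block used it.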

Additional observations from a re-analysis of the deposited data

Results flagged for a closer look

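MiR-653-5p lay below every siCtrl library in all 6 siSFPQ libraries and above every siCtrl library in all 6 siNONO libraries, with log2 fold changes of -1.75 with SFPQ knockdown and 0.64 with NONO knockdown. MiR-489-3p did the same, at -1.02 with SFPQ knockdown and 0.71 with NONO knockdown. The opposite directions drew attention to these miRNAs in the first place, so the difference between the knockdowns was not tested.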

How the results depend on the processing

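Directions with SFPQ and NONO knockdown held for all 3 miRNAs under every alternative run. Library totals gave SFPQ knockdown minus siCtrl values of -1.29 for miR-653-5p and -0.56 for miR-489-3p, and SFPQ minus NONO values of -2.05 and -1.38; spike-in totals gave SFPQ minus NONO values of -2.09 and -1.44. The median of all miRNAs with SFPQ knockdown was 0.02 with TMM, 0.47 with library totals and 0.21 with spike-in totals. Relative to it miR-653-5p stood at -1.76, -1.76 and -1.72. A scaling moves all miRNAs by nearly the same amount, so these values lie close together by construction. The median of intronic miRNAs in hosts of at least 200 kb was 0.66 with SFPQ knockdown, against 0.04 at 100 kb.

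Leaving out 1 library gave SFPQ values of -1.95 to -1.54 for miR-653-5p, -2.09 to -1.47 for miR-653-3p and -1.12 to -0.90 for miR-489-3p, and NONO values of 0.42 to 0.84, 0.25 to 0.85 and 0.62 to 0.74. For NEAT1 knockdown it gave -0.02 to 0.07, -0.02 to 0.38 and -0.51 to -0.28, and -0.74 to 5.09 points for the 3p share. ASO-NEAT1-1473 minus ASO-Ctrl ran from -0.09 to 0.04 for miR-653-5p and -0.10 to 0.31 for miR-653-3p. ASO-NEAT1-1047 minus ASO-NEAT1-1473 ran from -0.08 to 0.47 for miR-653-3p and -0.14 to 0.02 for miR-489-3p. SiSFPQ-3 minus siSFPQ-2 ran from -0.50 to 0.05 for miR-653-5p, and siNONO-4 minus siNONO-3 from -0.03 to 0.18 for miR-653-3p. Leaving out both libraries that stood apart, a choice made after seeing the data, gave 0.02 for miR-489-3p between the ASOs; NONO values were then 0.84, 0.25 and 0.74. The number of miRNAs passing with NONO knockdown was 10, and 37 without these libraries, 24 with the replicate block, 21 with library totals, 20 with DESeq2, 19 with no filter, 6 with spike-in totals and 3 with only the groups compared; leaving out 1 library gave 6 (siCtrl replicate 1) to 16 (siNONO-4 replicate 1). For siSFPQ-3 minus siSFPQ-2 it was 4, and 7 without both libraries, 1 with spike-in totals, 0 at 10 CPM or more or with only the groups compared, and 0 to 3 without 1 library, with 0 when siSFPQ-3 replicate 1 or 2 or siSFPQ-2 replicate 1 or 3 was left out and 1 without siSFPQ-3 replicate 3. For siNONO-4 minus siNONO-3 it was 0, and 8 without both libraries, 7 with DESeq2, 3 at 10 CPM or more, 1 with the block and 2 without siNONO-4 replicate 2. The ASO comparisons gave 0, or 1 for ASO-NEAT1-1047 against ASO-Ctrl or ASO-NEAT1-1473 with no filter and for ASO-NEAT1-1473 against ASO-Ctrl with only the groups compared.

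Differences near 0 changed sign: NEAT1 knockdown for miR-653-5p with no filter (-0.0), ASO-NEAT1-1473 for miR-653-5p where only miRNAs averaging 10 CPM or more were kept (0.01), the ASOs for miR-489-3p with spike-in totals (0.01), and siSFPQ-3 minus siSFPQ-2 for miR-653-5p with spike-in totals (0.27). The cause was not tested. For miR-489-3p with NEAT1 knockdown, an exact permutation test added after its libraries had been seen not to overlap gave -0.37 and p = 0.0238, which that separation fixes as the smallest that 6 against 3 libraries allow. With the ASO libraries taken as 3 pairs, the smallest p would be 0.1. EdgeR or DESeq2 adjusted p-values ran from 0.373 to 1.0. Same-number correlations ran from -0.288 to 0.619 between knockdown and control. They were 0.044 to 0.531 between siSFPQ and 0.073 to 0.507 between siNONO reagents, so pairing by number was not settled there. With the replicate block, siSFPQ-3 minus siSFPQ-2 for miR-489-3p was -0.82 (edgeR adjusted p = 0.0291), with 12 miRNAs passing against 4. Only 3 of 6 siSFPQ libraries, and 4 of 6 siNONO, correlated best with their own number. The block changed no other call on the members.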
